A study of Drosophila melanogaster with 3 samples.

Results

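The genes described here encode the nuclear subunits of the mitochondrial respiratory chain of Drosophila melanogaster. They were taken by symbol: protein-coding genes on the 6 chromosome arms named ND-, COX with a digit, ATPsyn, UQCR or SdhA to SdhD, which gave 87 of 13945 genes. The lists of peaks came from chromatin immunoprecipitation and sequencing (ChIP-seq) with an anti-GFP antibody on whole embryos collected from 0 to 16 hours of development. The embryos came from a transgenic line that stably expresses Runt with GFP at its C-terminus, so the tagged copy and not the native protein was precipitated. There were 3 biological replicates, 1 group and no second genotype, stage or treatment, and the 3 peak lists were called against the same control. An embryo collection of this kind mixes all tissues and many stages, so a peak does not tell which cells carried it. Each replicate list and the list called on the pooled replicates held 30000 peaks. The list that passed the authors' threshold on the irreproducible discovery rate (IDR) held 3065, which were the 3065 pooled peaks of highest signal. Read depth is unknown, and peaks are given by their rank within a list on the authors' signal value, rank 1 being the strongest.

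The respiratory chain consists of NADH dehydrogenase (complex I), succinate dehydrogenase (complex II), the cytochrome bc1 complex (complex III) and cytochrome c oxidase (complex IV). Together with the ATP synthase (complex V) they oxidise NADH and succinate, pump protons across the inner mitochondrial membrane and make ATP. Most subunits are encoded in the nucleus, and many of the Drosophila genes have a duplicate, often named with a final L, whose expression is known to be biased towards the testis. Runt is a RUNX-family transcription factor with roles in embryonic segmentation and sex determination. RUNX proteins bind the words TGCGGTC or TGCGGTT, and TGTGGTC or TGTGGTT, through their Runt domain.

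The 3 sequences that follow are from respiratory chain promoter peaks that recurred among the strongest 3065 peaks of every replicate. Each is the exon-free stretch of 121 bases centred on an IDR summit, read on the + strand of dm6, with the summit base in capitals. The ND-ASHI stretch is chrX:6679300-6679420, the ND-51 stretch chr2L:6062793-6062913 and the SdhC stretch chr3R:11209920-11210040. The SdhC summits of replicates 1 and 3 fell outside its stretch, at offsets of -88 and 81 bases from the IDR summit.
ND-ASHI: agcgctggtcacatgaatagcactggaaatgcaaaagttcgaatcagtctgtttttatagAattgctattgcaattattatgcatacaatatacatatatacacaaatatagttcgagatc
ND-51: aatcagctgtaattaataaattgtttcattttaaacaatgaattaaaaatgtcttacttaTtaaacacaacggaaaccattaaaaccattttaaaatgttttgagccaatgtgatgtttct
SdhC: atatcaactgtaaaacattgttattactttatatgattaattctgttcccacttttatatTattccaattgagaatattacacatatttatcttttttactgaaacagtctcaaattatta
G and C made up 32.2% of the ND-ASHI stretch and 21.5% of the SdhC stretch. None of the 3 holds any of the 4 RUNX words on either strand.

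Only 1 of the 9 IDR summits at respiratory chain starts had a RUNX word within 50 bases, and it belonged to COX7AL2, a duplicate of the complex IV gene COX7A. The site lies in the 5′ UTR of COX7AL2 at chr2L:2197855-2197881 on dm6 and is printed on the + strand, opposite to the gene, with the RUNX word in capitals.
COX7AL2: tagtggtcgtTGTGGTTgttggttgtt

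A RUNX word also occurred close to the start of 5 subunit genes, and in each of the 5 such a word overlaps GGTCACAC, the core of motif 1, a word common in Drosophila housekeeping promoters. The sites of 4 of them are shown to make this overlap visible, on the strand that reads GGTCACAC, with the RUNX word and the motif 1 core together in capitals. On dm6 they lie at chr2L:15751077-15751105 (- strand) for ND-B17, chr2L:3466071-3466099 (- strand) for ND-PDSW, chr2L:19958639-19958667 (+ strand) for COX4 and chr3R:11819315-11819343 (- strand) for COX5A.
ND-B17: atttaagagTGCGGTCACACtggcggcaa
ND-PDSW: ctggcacacTGCGGTCACACtggcttcgc
COX4: cattcgagaTGTGGTCACACttctctgca
COX5A: tgatttaatTGCGGTCACACtgcatcttc
The words share 4 bases in each of these sites, which lie 13, 72, 60 and 30 bases upstream of the outermost start of ND-B17, ND-PDSW, COX4 and COX5A. None of the 4 genes had an IDR summit within 500 bases of a start, and COX5A alone had a pooled one. Among all genes, 1602 had a RUNX word close to the start, of which 200 had an IDR summit at a start and 742 a pooled one. The 4 genes are too few to compare with these counts, so nothing is read from them about binding at the printed sites. ND-PDSW has a further RUNX word, 37 bases downstream of its start, that overlaps no motif 1 core.

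An IDR summit lay within 500 bases of an own annotated start in 9 of the 87 genes (10.3%, 95% exact Clopper-Pearson interval 4.84 to 18.7), against 11.4% of all protein-coding genes. These intervals cover counting error only, and neighbouring genes can share a peak. The 9 genes were ND-42, ND-51, ND-ASHI, ND-B22, ND-MWFE and ND-SGDH of complex I, SdhC of complex II, and COX7B and COX7AL2 of complex IV. The count was also taken with IDR peaks kept only where the strongest peaks of 2 replicates overlapped them. It was then 4 genes without replicate 1 (4.60%, all genes 8.29%), 5 without replicate 2 (5.75%, all genes 7.93%) and 3 without replicate 3 (3.45%, all genes 7.86%). This filter can only lower the count, so the fall does not show that it depends on any replicate. The filtered lists are also shorter, and the respiratory chain share was below that of all genes in each. In the pooled list, a summit at a start was found for 29 of the 87 (33.3%, 23.6 to 44.3), against 42.8% of all genes. Of the remaining 58 genes, 28 had a summit at a start in at least 1 replicate list and 30 had none in any list. Those 30 are 34.5% of the 87, against 37.8% of all genes with none in any replicate.

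Duplicates of subunit genes were nearly all without a pooled summit at a start. Of the 87 genes, 24 are like-paralogs (duplicates with a final L, alone or before a number) and 63 are other subunit genes. A pooled summit lay at the start of 28 of the 63 (44.4%, 31.9 to 57.5), close to the background of 42.8%, and of 1 of the 24 like-paralogs (4.17%, 0.105 to 21.1). IDR summits lay at 8 of the 63 (12.7%, 5.65 to 23.5) and 1 of the 24 (4.17%, 0.105 to 21.1), against 11.4% of all genes, which both intervals include. COX7AL2 was the like-paralog in both counts.

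Complex I, which takes electrons from NADH, held 6 of the 9 genes with an IDR summit at a start, among 34 subunit genes without duplicates (17.6%, 6.76 to 34.5), an interval that includes the 11.4% of all genes. ND-ASHI, the counterpart of human NDUFB8, had the strongest of these summits. It ranked 745 in the pooled list with a signal of 278, and 973, 866 and 706 in replicates 1, 2 and 3. ND-51 encodes the FMN-binding subunit that accepts electrons from NADH, the counterpart of human NDUFV1. Its summit ranked 1269 in the pooled list (signal 211), 1378 in replicate 1, 799 in replicate 2 and 2124 in replicate 3. Both genes were therefore within the 3065 strongest peaks of every replicate.

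The other 4 complex I genes with an IDR summit encode accessory subunits, and each fell outside the strongest 3065 peaks of at least 1 replicate. ND-MWFE, the counterpart of NDUFA1, ranked 1508 in the pooled list (signal 193), and 963, 4237 and 1503 in replicates 1, 2 and 3. ND-42, the counterpart of NDUFA10, ranked 2035 (signal 163), and 1353, 8340 and 1806 in the replicates. Replicate 2 was the low one for both. ND-SGDH, the counterpart of NDUFB5, ranked 2557 (signal 144), with 5524, 4270 and 1365, so that it was high in replicate 3 alone. ND-B22, the counterpart of NDUFB9, ranked 2690 (signal 140), with 3864, 2311 and 3802, and passed into the strongest 3065 in replicate 2 alone.

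The conserved core of complex I, which carries the electron path, has 7 nuclear genes (ND-75, ND-51, ND-49, ND-30, ND-24, ND-23 and ND-20). Of these, ND-51 was the single one with a pooled summit at a start, against 42.8% of all genes. The 7 genes were picked after their values were seen, and they are too few to show a lower share. Of the other core genes, 4 had a summit in replicate lists only. ND-20 had it in replicate 1 at rank 20667 and ND-24 in replicate 1 at rank 9063. ND-75 had it in replicate 3 at rank 18801, and ND-23 at rank 12750 in replicate 2 and 6056 in replicate 3. ND-30 and ND-49 had none. Complex I genes without duplicates that were below the IDR threshold but in the pooled list were ND-13A, ND-B14.7, ND-39, ND-MNLL, ND-AGGG and ND-B18, at pooled ranks from 5748 to 25869, making 12 of 34 in all (35.3%, 19.7 to 53.5, all genes 42.8%). The genes with no summit in any replicate were ND-19, ND-30, ND-49, ND-ACP, ND-B14, ND-B14.5B, ND-B16.6, ND-B17.2, ND-B8 and ND-MLRQ. These are 10 of the 34 (29.4%, 15.1 to 47.5), against 37.8% of all genes, which the interval includes.

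Complex II, which oxidises succinate and is also part of the tricarboxylic acid cycle, had an IDR summit at the start of SdhC, a membrane anchor subunit. SdhC ranked 1796 in the pooled list (signal 175) and 1670, 1869 and 2158 in replicates 1, 2 and 3. Its ranks lay close together, as did those of ND-ASHI. SdhA, the flavoprotein that oxidises succinate, had a pooled summit at rank 18418, with 15326 in replicate 1, 15948 in replicate 3 and none in replicate 2. SdhB, the iron-sulphur subunit, and SdhD, the other anchor, had no pooled summit at a start and each had one in 2 replicates, between ranks 14188 and 26276. The subunits of the 1 complex thus ran from the IDR list to weak peaks in 2 replicates.

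Complex III had no IDR summit at a start in any of its 9 genes, which allows a share of up to 33.6% by the exact interval. In the pooled list 4 of its 6 genes without duplicates had one (66.7%, 22.3 to 95.7), against 42.8% of all genes, which the interval includes. UQCR-C2, a core protein, ranked 8022 in the pooled list, with 9411, 4267 and 29869 in replicates 1, 2 and 3. UQCR-C1, the other core protein, ranked 8320, with 7348 in replicate 1, 6490 in replicate 2 and no summit in replicate 3. The small subunit UQCR-Q ranked 14670, with 5782, 9972 and 24632. UQCR-14 ranked 16236, with 4597 in replicate 1, 8758 in replicate 3 and no summit in replicate 2. UQCR-6.4 had summits in replicates 1 and 2 alone, at ranks 7034 and 6773, and UQCR-11 had none. The peaks at complex III starts were thus weak. Replicate 3 ranked those at UQCR-C2 and UQCR-Q lowest and lacked the one at UQCR-C1, whereas UQCR-14 lacked one in replicate 2.

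Complex IV, which passes electrons to oxygen, had IDR summits at COX7B and COX7AL2. COX7B, a small subunit of the enzyme, ranked 2899 in the pooled list (signal 135), the weakest of the 9, and 6520, 4671 and 2073 in replicates 1, 2 and 3. COX7AL2 ranked 2459 (signal 147), with 5847, 1863 and 2127. Replicate 1 was the lowest for both. Its parent COX7A had a summit in replicate 1 alone, at rank 5277. COX7C, COX5A and COX5B had pooled summits outside the IDR list at ranks 3825, 5200 and 17637, which brought complex IV to 4 of 8 genes without duplicates (interval 15.7% to 84.3%, all genes 42.8%). COX6B ranked 2973 in replicate 1 and 5681 in replicate 3 and had no summit in replicate 2 or in the pooled list. COX4 and COX8 had no summit at a start in any list.

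The ATP synthase had no IDR summit at a start in any of its 15 genes (upper bound 21.8%). In the pooled list 6 of its 11 genes without duplicates had one (54.5%, 23.4 to 83.3), near the 42.8% of all genes. ATPsynC, the subunit of the rotating membrane ring, ranked 3595 (signal 119), the nearest to the IDR threshold among all the genes outside it. It ranked 3348 in replicate 1, 1396 in replicate 2 and 3364 in replicate 3. The replicate 1 and replicate 3 peaks did not overlap, with summits at chr3R:31219742 and chr3R:31219368. ATPsyngamma, the central stalk, ranked 3672 (signal 118), with 2704, 24832 and 3740 in replicates 1, 2 and 3. It was within the strongest 3065 in replicate 1 alone, and replicate 2 held it far lower than the others. ATPsynCF6, ATPsynF, ATPsynD and ATPsynB followed at pooled ranks 5833, 6555, 8206 and 18711. ATPsynE ranked 2231 in replicate 1 and 14482 in replicate 3 and was absent from the pooled promoter list. ATPsynbeta, a catalytic subunit on chromosome 4, had a summit in replicate 1 alone, at rank 23745. ATPsyndelta had none.

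The IDR threshold fell within a run of similar values. The 5 genes just inside it were ND-42, COX7AL2, ND-SGDH, ND-B22 and COX7B, with signals from 163 to 135. The 5 just outside were ATPsynC, ATPsyngamma, COX7C, COX5A and ND-13A, with signals from 119 to 91.8. The best pooled rank of an IDR summit at a respiratory chain start was 745, against 4 for the other IDR summits at starts. A set of 1271 summits will tend to hold a stronger best one than a set of 9 by its size alone, so nothing is read from these 2 ranks. The median pooled rank of the 9 IDR summits was 2035 (range 745 to 2899), against 1361 for the 1271 other IDR summits at starts. Over all genes with a pooled summit at a start, the median rank of the strongest one was 5833 for the 29 respiratory chain genes and 7060 for all 5972 genes.

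**Figure D1:**
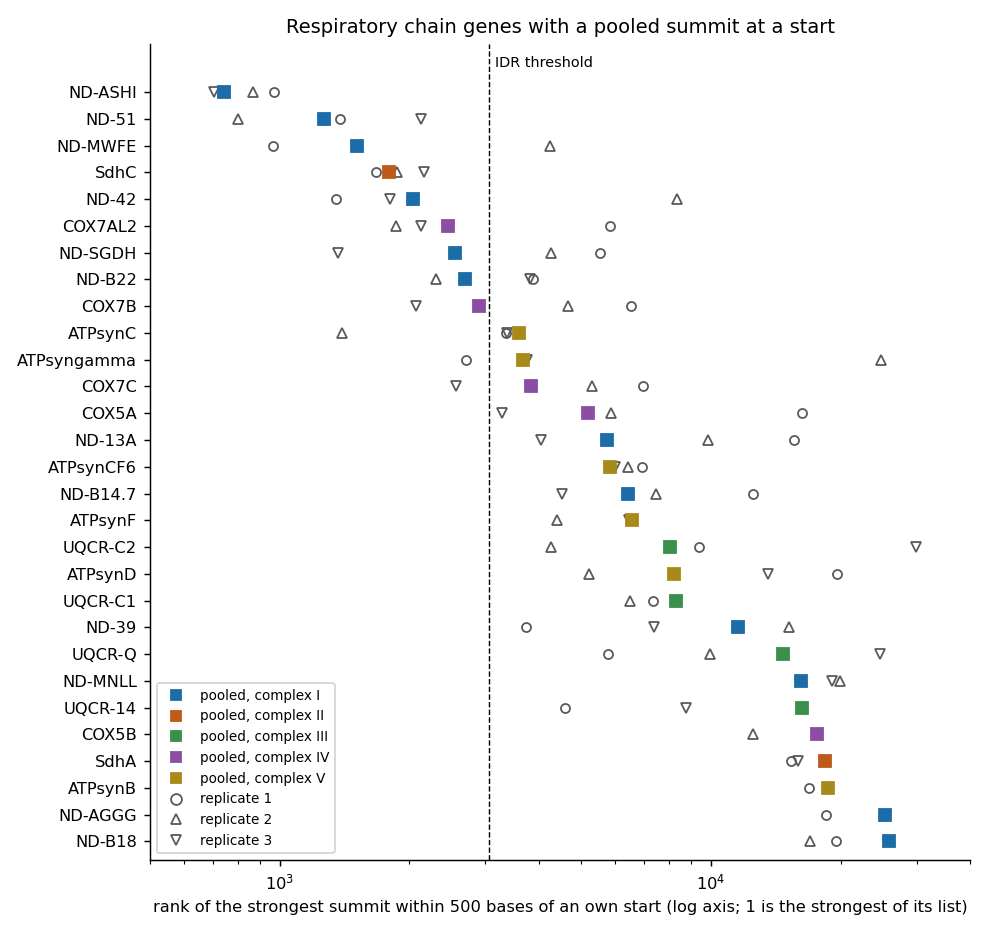
Rank of the strongest summit within 500 bases of an own start (log axis, 1 is the strongest) for the 29 respiratory chain genes with a pooled summit there. Filled squares are the pooled list, coloured by complex, open symbols are replicates 1, 2 and 3, and the dashed line is the IDR threshold at rank 3065. The 9 genes left of the line run from ND-ASHI at 745 to COX7B at 2899, and replicate ranks lie on both sides of the line for 6 of them.

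The replicates held similar numbers of these genes but not always the same ones. A summit at a start was found for 43, 35 and 35 of the 87 genes in replicates 1, 2 and 3, or 43.3% ± 5.31 (SD, n = 3), against 45.5% ± 2.38 of all genes (48.1%, 44.8% and 43.5%). The 63 subunit genes gave 38, 32 and 31, or 53.4% ± 6.01 (SD, n = 3). The 24 like-paralogs gave 5, 3 and 4, or 16.7% ± 4.17 (SD, n = 3). The 3 like-paralog values lay below the all-gene value of every replicate, and the 3 subunit values lay above it. Another gene's start lay within 500 bases of an own start in 60.3% of the subunit genes, against 30.9% of all genes, and these values are not split by it. A summit in all 3 replicates was found for 19 of the 63 subunit genes (30.2%, 19.2 to 43.0) and 1 of the 24 like-paralogs (4.17%, 0.105 to 21.1), against 29.6% of all genes. None in any replicate was found for 14 of the 63 (22.2%, 12.7 to 34.5) and 16 of the 24 (66.7%, 44.7 to 84.4), against 37.8% of all genes. Any own start counted, so the summits of a gene could lie apart, as at ND-39 and COX7C, where replicate summits lay at different starts.

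Within the strongest 3065 peaks of each replicate, the respiratory chain genes with a summit at a start numbered 8, 6 and 9, a mean of 7.67 ± 1.53 (SD, n = 3). The corresponding shares were 9.20%, 6.90% and 10.3%, against 12.4%, 11.6% and 11.4% of all genes. Of the 9 IDR summits at their starts, 3 (33.3%), those of ND-ASHI, ND-51 and SdhC, were matched by one of the strongest peaks in all 3 replicates. The same held for 784 of the 1271 other IDR summits at starts (61.7%). The respiratory chain summits are only 9 and were also weaker, with a median pooled rank of 2035 against 1361 for the others. The difference between the shares was not tested. All 9 were overlapped by at least 1 base in each whole replicate list.

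**Figure D2:**
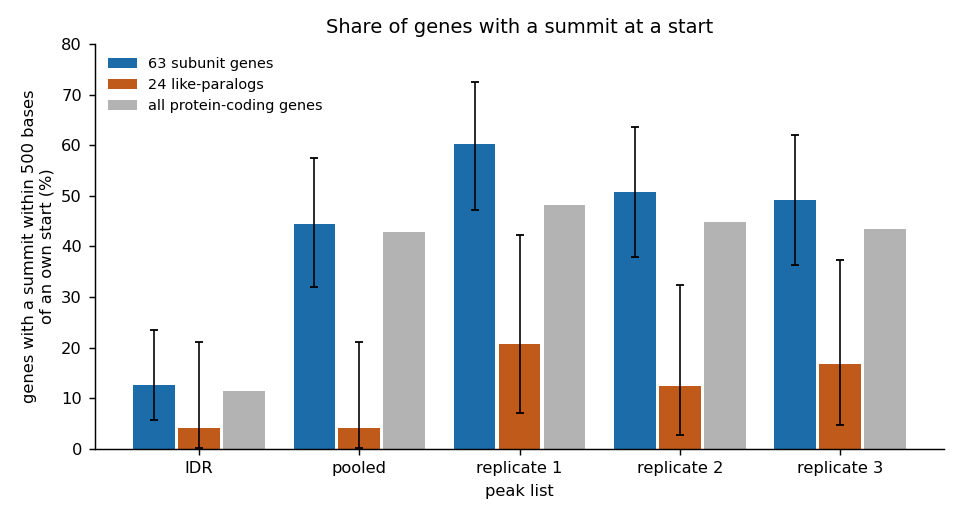
Share of genes (percent, axis from 0) with a summit within 500 bases of an own start in each of 5 peak lists, for the 63 subunit genes, the 24 like-paralogs and all protein-coding genes. Bars on the first 2 groups are 95% exact binomial intervals. The like-paralogs lie below all genes in every list, but in the IDR list their interval includes the all-gene share of 11.4%. The subunit genes at 44.4% in the pooled list stand beside a background of 42.8%.

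Parents and duplicates could be paired by symbol in 20 cases, with 18 distinct parents. A pooled summit lay at the parent's start and not at the duplicate's in 8 pairs, and at the duplicate's alone in 1 pair, COX7A and COX7AL2. In 11 pairs neither start had one. ND-51, for example, had a summit at its start in all 3 replicates, while ND-51L1 and ND-51L2 had none in any. SdhC and SdhCL, COX7C and COX7CL, and ATPsynCF6 and ATPsynCF6L showed the same contrast of 3 replicates against 0. Over the 20 pairs, the parent had a summit in more replicates in 12, the duplicate in 2, and the numbers were equal in 6. The equal pairs included SdhB and SdhBL, and UQCR-6.4 and UQCR-6.4L, each gene with a weak summit in 2 replicates. In ND-B14.5A and ND-B14.5AL, and COX7A and COX7AL, each gene had 1 in 1 replicate, and ND-49, UQCR-11 and their duplicates had none. COX4L had a summit in replicate 1 at rank 10577, while its parent COX4 had none.

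Respiratory chain genes are short and often share a promoter region with a neighbour, which bears on how a peak can be assigned. The median span was 1178 bases for the 63 subunit genes and 744 for the like-paralogs, against 2166 for all genes. Another gene's start lay within 500 bases of an own start in 38 of the 63 (60.3%) and 3 of the 24 (12.5%), against 30.9% of all genes. Where there was such a partner start, an IDR summit lay at 7 of 41 respiratory chain starts (17.1%, 7.15 to 32.1), against 19.3% of all genes with a partner. Where there was none, 2 of 46 had one (4.35%, 0.531 to 14.8), against 7.81%. Pooled summits were found at 19 of 41 (46.3%, 30.7 to 62.6) with a partner, against 57.3%, and at 10 of 46 (21.7%, 10.9 to 36.4) without, against 36.3%. Among genes with no partner, a pooled summit lay at 9 of 25 subunit genes (36.0%, 18.0 to 57.5) and 1 of 21 like-paralogs (4.76%, 0.120 to 23.8), so the gap between the classes was also present there.

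**Figure D3:**
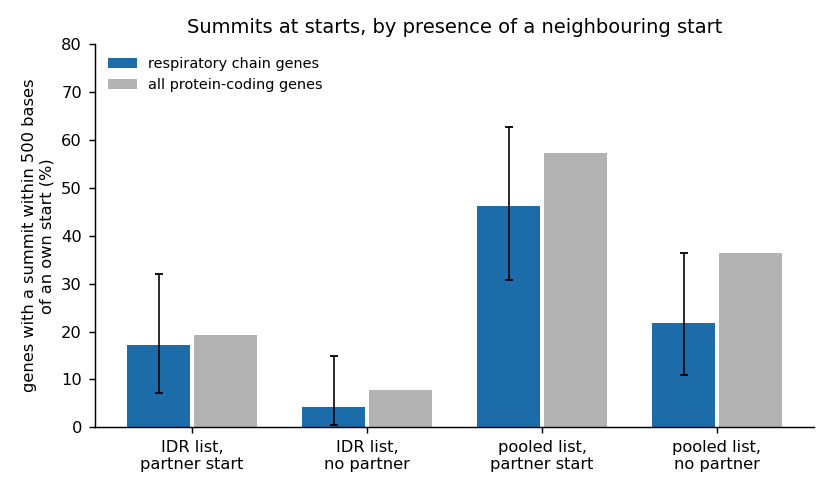
Share of genes (percent, axis from 0) with an IDR or pooled summit within 500 bases of an own start, split by whether another protein-coding gene's start lies within 500 bases. Blue bars are respiratory chain genes with 95% exact binomial intervals and grey bars are all protein-coding genes. In both lists the blue and the grey bars are higher with a partner start than without, as in the rise from 7.81% to 19.3% for all genes in the IDR list.

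For 7 of the 9 genes the IDR summit lay within 500 bases of another gene's start as well, against 49.4% of the 1584 genes with an IDR summit at a start. ND-ASHI shared its peak with Fum1, which encodes fumarase of the tricarboxylic acid cycle. The summit was 242 bases upstream of the ND-ASHI start, in an intron of Fum1. ND-42 shared its peak with Cchl, the cytochrome c heme lyase that attaches heme to cytochrome c, and the summit lay 17 bases from the Cchl start and 212 from that of ND-42. Both partners thus also serve mitochondrial energy metabolism.

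In the other 5 cases SdhC is paired with Tctp, ND-51 with CG13994, ND-MWFE with the peptidase gene TppII, ND-SGDH with the GTPase regulator RhoGAP68F, and COX7B with Sec3 of the exocyst. The summit was nearer to the partner for TppII (73 bases), RhoGAP68F (119 bases) and Sec3 (119 bases), and to the respiratory chain gene for SdhC (131 bases) and ND-51 (96 bases). ND-B22 and COX7AL2 were alone, and their summits lay in their own 5′ UTRs, 31 and 76 bases from the nearest own start. Counting each summit for the nearest start alone left 5 of the 9 genes: ND-51, ND-ASHI, ND-B22, SdhC and COX7AL2.

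Pooled summits at respiratory chain starts lay close to the start. The median distance of the strongest one was 81.0 bases for the 29 genes and 143 for all 5972 genes, and 19 of 29 (65.5%) were within 100 bases, against 36.8%. They were upstream in 21 of 29 (72.4%), against 73.0% of all genes. The summit was shared with another gene's start in 19 of 29 (65.5%), against 39.4%. ATPsynC (7 bases), COX5B (15), UQCR-14 (16), ND-B18 (19) and ND-13A (20) had the summits nearest to a start, and ND-ASHI (242) and ND-42 (212) the farthest.

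**Figure D4:**
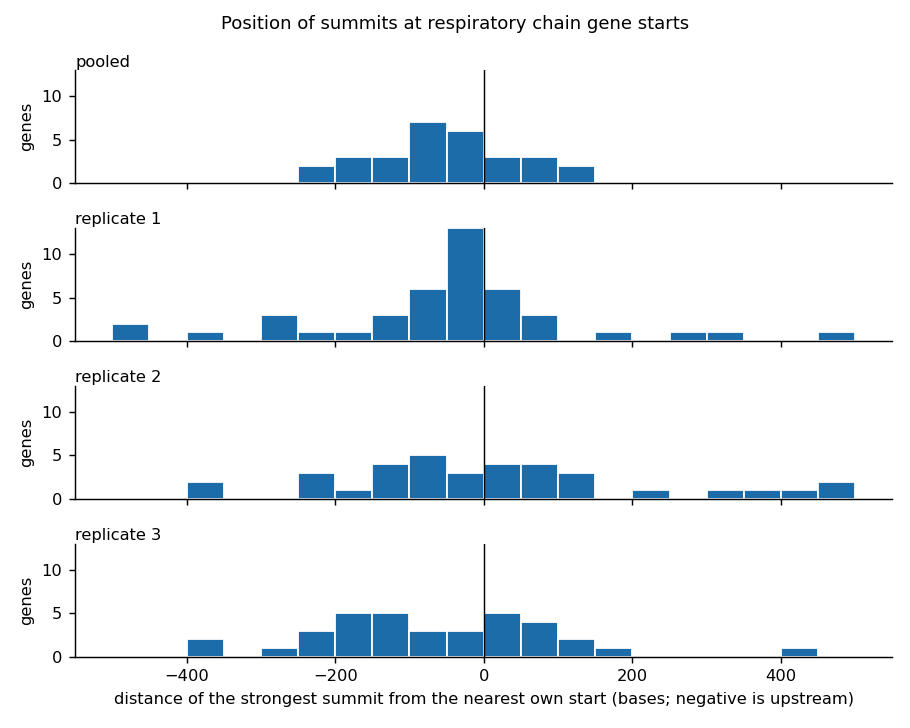
Distance in bases of the strongest summit from the nearest own start (negative is upstream) for respiratory chain genes, in bins of 50 bases, in the pooled list and the 3 replicates. The vertical line is the start. Pooled summits of the 29 genes lie from 242 bases upstream to 143 downstream, while replicate summits reach farther to either side.

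Beyond the starts, an IDR summit lay within the span or 5 kb of 33 of the 87 genes (37.9%, 27.7 to 49.0), against 33.8% of all genes. For the pooled list the count was 68 (78.2%, 68.0 to 86.3), against 81.6%. The 33 genes comprised 16 of complex I, 4 of complex II, 3 of complex III, 6 of complex IV and 4 of complex V. All 4 parental genes of complex II were among them, and 5 like-paralogs (ND-20L, UQCR-6.4L, COX5BL, COX7CL and COX7AL2). Of the 24 with no IDR summit at an own start, 20 had summits that were nearer to another gene's start. Own starts were nearest for ND-B14.7, ND-20L, UQCR-6.4L and COX7C. With every IDR summit given to the gene with the nearest start, 9 respiratory chain genes held one (10.3%, 4.84 to 18.7), against 15.2% of all genes.

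Of these neighbouring peaks, those of ranks 32, 69, 91 and 141 were far stronger than any at a respiratory chain start, the best of which ranked 745. Others that follow, of ranks 752, 841, 846 and 1011, were weaker than that best one. The start of ND-51 lay 3352 bases from a summit of rank 32 (signal 1013) in the 5′ UTR of CG9147. COX7AL2 had 4 IDR summits within 5 kb, at ranks 69, 846, 1011 and 2459, of which the last was the one at its start and the strongest lay 4479 bases upstream in intergenic sequence. UQCR-6.4 lay 4164 bases from a summit of rank 91, and SdhD 2442 bases from one of rank 141 in an intron of Hrd3. COX7C and its duplicate COX7CL shared a single summit of rank 446 in an intron of oys, and COX5B and COX5BL one of rank 619 in an intron of Trmt6. ND-B17 had summits of ranks 482 and 752 in introns of the cyclin gene CycE. ND-B16.6 lay 3359 bases from a summit of rank 841 in an intron of kdn, which encodes citrate synthase.

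The remaining summits within 5 kb belonged to complexes I, II, III and V. In complex I they ranked 532 and 1803 for ND-B22, 1807 for ND-SGDH, 896 for ND-13A, 1300 for ND-ACP, 1701 for ND-B14.7, 1909 for ND-20L, 2093 for ND-B8 and 2816 for ND-B15. ND-15 had 3 summits at ranks 1021, 1130 and 2835, and ND-39 had 1 at rank 1283, and these were the 2 genes outside the promoter set with a summit inside the span. In complexes II and III the ranks were 558 for SdhA, 1351 for SdhB, 1343 and 1765 for UQCR-C1 and 1746 for UQCR-6.4L. In complex V they were 523 for ATPsynCF6, 980 for ATPsynE, 1580 for ATPsynC and 2642 for ATPsynD.

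By arm, the 9 genes with an IDR summit at a start were divided as 3 of 16 on 2L, 1 of 17 on 2R, 2 of 20 on 3L, 2 of 19 on 3R and 1 of 13 on X. Among all genes the counts were 329 of 2657 on 2L, 318 of 2852 on 2R, 341 of 2739 on 3L, 393 of 3421 on 3R and 202 of 2196 on X. Chromosome 4 carries ND-49 and ATPsynbeta, and neither had an IDR or pooled summit at its start. On that chromosome 1 of 80 genes had an IDR summit at a start and 6 had a pooled one.

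The sequence at the respiratory chain promoter peaks was rich in A and T. Within 50 bases of the 9 IDR summits the GC content was 29.7% ± 7.48 (SD over 9 summits), while windows of the same width centred 500 bases to either side had 51.4%. For the 1271 other IDR summits at starts the values were 33.7% ± 10.8 (SD over 1271 summits) and 44.2%. A RUNX word was present at 1 of the 9 (11.1%, 0.281 to 48.2), against 80 of 1271 other summits (6.29%). It was present in 0 of 18 flanking windows of the 9 and in 3.42% of flanks of the others. For the 0 of 18, taking 3 as the most that a count of 0 allows gives an approximate bound of 16.7%, not an exact interval. In the pooled list a RUNX word was present at 2 of 39 summits at respiratory chain starts (5.13%, 0.627 to 17.3), against 6.24% of 7148 others. With 9 summits, a difference of this size was not detectable.

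Promoter windows from 250 bases before to 50 after the outermost start were searched for the same words on both strands. A RUNX word occurred in 9 of the 87 windows (10.3%), against 11.5% of all genes. In subunit genes these were COX4, COX5A, ND-B14, ND-B17 and ND-PDSW, and in duplicates COX6CL, COX7AL2, SdhAL and UQCR-14L. In all 5 of the subunit genes a RUNX word overlapped a motif 1 core, as in the sites printed above, and in none of the 4 duplicates. Across all genes the overlap was found in 115 of 1602 windows with a RUNX word (7.18%). Counted over windows with a motif 1 core, the contrast was smaller. The overlap was then in 5 of 15 subunit windows (33.3%), against 10.7% of the 1075 windows of all genes. The motif 1 core itself was found in 15 of the 63 subunit windows (23.8%) and 1 of the 24 duplicate windows (4.17%), against 7.71% of all genes.

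Other promoter words were searched in the same windows. The word TATCGATA of the replication-related factor DREF occurred in 9 of the 87 windows (10.3%), against 9.37% of all genes, and these were 9 of the 63 subunit genes (14.3%) and none of the 24 duplicates. The palindromes TTACGTAA, TTACATAA, TTATGTAA and TTATATAA, described for Drosophila nuclear genes of oxidative phosphorylation, occurred in 5 (5.75%), against 5.18%. All 5 were subunit genes (7.94% of the 63): ND-30, ND-42, ND-49, ND-MNLL and ND-SGDH, of which ND-42 and ND-SGDH had an IDR summit at the start. Among all genes, 102 of the 723 with such a palindrome had an IDR summit at a start, and 5 genes are too few to compare with them. No palindrome lay within 50 bases of any of the 9 IDR summits. The E-box CACGTG occurred in 4.60%, against 4.24%, and the GATA words AGATAA or AGATAG, and TGATAA or TGATAG, in 42.5%, against 46.8%. By class, GATA words were in 36.5% of subunit windows and 58.3% of duplicate windows, and the E-box in 3.17% and 8.33%. Such matches describe the letters and not bound sites.

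Genes of mitochondrial energy metabolism and its upkeep that carry other symbols were counted in the same way. Of 41 such genes in 6 lists, 10 had an IDR summit at a start (24.4%, background 11.4%) and 30 a pooled one (73.2%, background 42.8%). These lists were assembled with earlier results of the data known, and no test was made. The Fum1 peak among the 10 is the ND-ASHI peak counted before. Of 9 subunits and cytochrome c genes outside the symbol rule, 4 had an IDR summit at a start. Cyt-c-d and Cyt-c-p encode the cytochromes c that carry electrons from complex III to complex IV. The Cyt-c-d summit ranked 110 in the pooled list and 110, 101 and 140 in the replicates, 384 bases downstream of the start and also near the start of CG31808. Cyt-c-p ranked 1985, with 2940, 1089 and 1961. blw, the alpha subunit of the ATP synthase, ranked 2751. cype, a subunit of complex IV, ranked 939, with a summit 426 bases upstream of its start that also lay within 500 bases of the start of Ncoa6.

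In the tricarboxylic acid cycle list, 3 of 11 genes had an IDR summit at a start. Idh3g, a subunit of isocitrate dehydrogenase, ranked 144 in the pooled list and 114, 259 and 120 in the replicates, 96 bases upstream of its start and also near that of CG4743. Ogdh, of the oxoglutarate dehydrogenase complex, ranked 2066, and Fum1 had the peak of rank 745 that it shares with ND-ASHI. Idh3g was thus stronger in every replicate than the summit at the start of any respiratory chain gene of the symbol rule. Among 4 assembly factors CIA30, for complex I, ranked 415, with 513 in replicate 1, 427 in replicate 2 and no summit at the start in replicate 3. Its summit was also within 500 bases of the CG7601 start. PolrMT, the mitochondrial RNA polymerase, ranked 2947, shared with the start of CG14339, and was the 1 of 8 genes of mitochondrial DNA maintenance and transcription in the IDR list. Mpcp2, a phosphate carrier, ranked 1660 and was the 1 of 6 carriers. None of 3 nuclear regulators (ewg, srl and Ets97D) had an IDR summit at a start, and ewg and Ets97D had pooled ones at ranks 7207 and 6861.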

How the data were processed

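ChIP-seq peaks of Runt-GFP whole embryos were analysed in 3 biological replicates with the numbers the labels give. Peaks were called on each replicate and on the pooled replicates against 1 control, per the readme files. The aligner, peak caller and IDR cut-off were not given in the sources used here. Deposited lists give for each peak a dm6 position, a summit, a signal value of the authors' own scaling and a −log10 q-value. The authors' −log10 q-value reached at most 3.84 and was tied over the IDR list, so peaks were ranked by signal.

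Starts and spans came from the Ensembl release 115 annotation, and sequence from the Release 6 genome, whose arm lengths contain all peaks. Summits were counted within 500 bases of any start and within the span or 5 kb, for all 13945 genes. Motifs were sought within 50 bases of summits and in promoter windows. Shares carry 95% exact intervals for counting error, and no test was made because there is 1 group. The counting was checked on simulated data.

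The genes and lists were chosen with earlier results of these data known. Named were the genes with an IDR summit at a start or within 5 kb, the 5 on either side of the IDR threshold, genes without a pooled summit and pathway genes with an IDR summit. Pairs, overlapping words, core subunits and other genes named were chosen after their values were seen. Alternatives changed the distance, starts, symbols, assignment and list (the 1532 strongest IDR or 6130 strongest pooled peaks). Leaving out all 24 like-paralogs, including those of subunits with other symbols, was added after seeing the data. Python 3.11.15, numpy 2.4.6, scipy 1.17.1 and matplotlib 3.10.9 were used.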

Additional observations from a re-analysis of the deposited data

How the results depend on the processing

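The 9 genes with an IDR summit at a start became 3 with the stronger part of the IDR list (3.45%, all genes 6.45%), 15 with the pooled list taken to double length (17.2%, all genes 19.5%) and 5 with each summit given to its nearest start (5.75%, all genes 8.81%). Without 1 replicate they were 3 to 5 (3.45% to 5.75%, all genes 7.86% to 8.29%), from lists that were also shorter, at 1986 to 2147 peaks. These lists were filtered from the IDR list, so the count could only fall. The other 8 alternatives moved this count by at most 1.5 times. The 33 genes with an IDR summit in the span or 5 kb became 19 at 2 kb (21.8%, all genes 23.0%), 50 at 10 kb (57.5%, all genes 47.0%), 4 in the span alone (4.60%, all genes 9.21%) and 9 with each summit given to its nearest start (10.3%, all genes 14.2%). The other 10 alternatives stayed within 1.5 times of it. The pooled count of 29 stayed within 1.5 times under all 9 alternatives run, leaving out all like-paralogs (chosen after seeing the data) among them. With nearest starts alone it was 21 (24.1%, all genes 36.4%). The RUNX share of 11.1% at the 9 summits was 0 within 25 bases, and the other 3 alternatives left it within its interval. No paired analysis was possible because there is 1 group. Depth is unknown, so a gene without a summit is not shown to lack binding.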
